A study of Mus musculus with 36 samples.

Results

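The genes described here are 9 that carry cholesterol and other lipids between brain cells: the apolipoproteins Apoe, Apoc1 and Clu, the efflux transporters Abca1 and Abcg1, the liver X receptors Nr1h2 and Nr1h3, the uptake receptor Lrp1 and the cholesterol-esterifying enzyme Soat1. They were taken by gene symbol from a table of 36172 gene entries, and each of the 9 symbols was found. Levels were followed in mouse hippocampus, in whole-tissue RNA and in RNA pulled down from microglia, to see where each transcript sat and how its level differed between ages.

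All animals were Cx3cr1-NuTRAP mice, in which a tamoxifen-inducible cre under the promoter of Cx3cr1 switches on a GFP tag on ribosomes. The promoter is used by microglia and also by macrophages of the brain's borders, so the tag does not separate those cells. The study varied the age at which cre was induced. Inputs, the cleared homogenate set aside before the pulldown, came from 10 young animals induced early (6 months of age at collection, 5 females and 5 males), 12 old animals induced early (22 months, 7 females and 5 males) and 7 old animals induced late (22 months, 5 females and 2 males). Translating ribosome affinity purification (TRAP) with an antibody to GFP gave 7 libraries from those same 7 late-induced animals. Pulldowns from mice induced early are not analysed here, so no age difference within microglia was measured.

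In the brain, astrocytes are the main source of lipoprotein particles in the healthy state, and microglia also make Apoe, with more of it when they become reactive. ABCA1 and ABCG1 load cholesterol onto apolipoproteins, LRP1 and related receptors take the particles up, and SOAT1 stores surplus cholesterol as esters in lipid droplets. The liver X receptors sense oxysterols and, as dimers with a retinoid X receptor, switch on Abca1, Abcg1, Apoe and Apoc1 when cellular cholesterol is high.

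Library totals ran from 12.9 to 20.4 M estimated counts. Levels are CPM, counts per M counts of a library, with library sizes scaled by the TMM method, which assumes that most genes do not differ. Of the 25 microglia markers, 25 were higher in TRAP than in input, with a median log2 fold change (called the log2 difference below where it belongs to 1 gene) of 4.27, and all 10 border macrophage markers were higher as well, with a median of 3.83. In the late-induced animals Cx3cr1 stood at a mean of 39.9 ± 5.08 CPM before the pulldown against 688 ± 134 CPM after it (SD over 7 animals). Oligodendrocyte markers fell (12 of 12) and endothelial markers were higher in 9 of 10, with a summed endothelial level of 92.9 to 143 CPM in input and 196 to 328 CPM in TRAP, whose part in the results below was not tested. The number that each library's label carries runs in blocks, 1 to 23 in the 22-month early-induced group, 25 to 38 in the late-induced animals and 39 to 57 in the young, so whatever this order stands for cannot be told apart from age, while input and TRAP share 1 block.

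Abca1 (identifier 11303, protein-coding, chr4:53030789-53159895, minus strand, 50 exon blocks spanning 10363 bp) had the largest log2 difference of the 9 in the pulldown, and its promoter is shown because this gene is a textbook target of the liver X receptors. The 250 bases before its annotated start, read from the RefSeq promoter table of GRCm38.p6 at chr4:53159896-53160145 (minus strand, 5′ to 3′), carry in capitals, from left to right, an E-box, a direct repeat of the liver X receptor type and a TATA box.
Abca1 promoter: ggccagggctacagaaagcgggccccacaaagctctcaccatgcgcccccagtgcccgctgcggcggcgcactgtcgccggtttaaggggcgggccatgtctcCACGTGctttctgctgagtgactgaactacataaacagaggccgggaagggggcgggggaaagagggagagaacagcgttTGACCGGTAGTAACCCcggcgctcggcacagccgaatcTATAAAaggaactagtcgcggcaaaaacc
The repeat was searched as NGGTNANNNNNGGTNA on both strands and lies 67 to 52 bases before the start, on the opposite strand to the gene, where it reads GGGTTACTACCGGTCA. It was present in 236 of 32851 mouse promoters of this table (0.718%). The E-box was searched as CACGTG (7.15% of promoters) and the TATA box as TATAAA (13.6%). The table held windows for 6 of the 9 genes (9 windows in all, none for Apoc1, Clu and Abcg1), and Abca1 was the only one of the 6 with the repeat in these letters. Each match is a run of letters and not a measured binding site.

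In the pulldown, Abca1, Apoe and Soat1 were highest, with log2 differences above 1, Lrp1, Nr1h2 and Abcg1 were moderately higher, Nr1h3 was level with input, and Clu was lower. Of the 9 genes, 7 were called higher and 1 lower in TRAP by edgeR's quasi-likelihood test at an adjusted p under 0.05. This fit, the source of each SE and adjusted p of the pulldown, did not pair TRAP with input by animal. Pairing changed no call of the 9 genes. Across the table, 30.4% of 14596 genes tested were called higher and 28.8% lower, and 59.2% in either direction, so a call by itself is common in this contrast. The median log2 difference was 0.51 over the 9 genes and -0.02 over all genes tested.

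**Figure D1:**
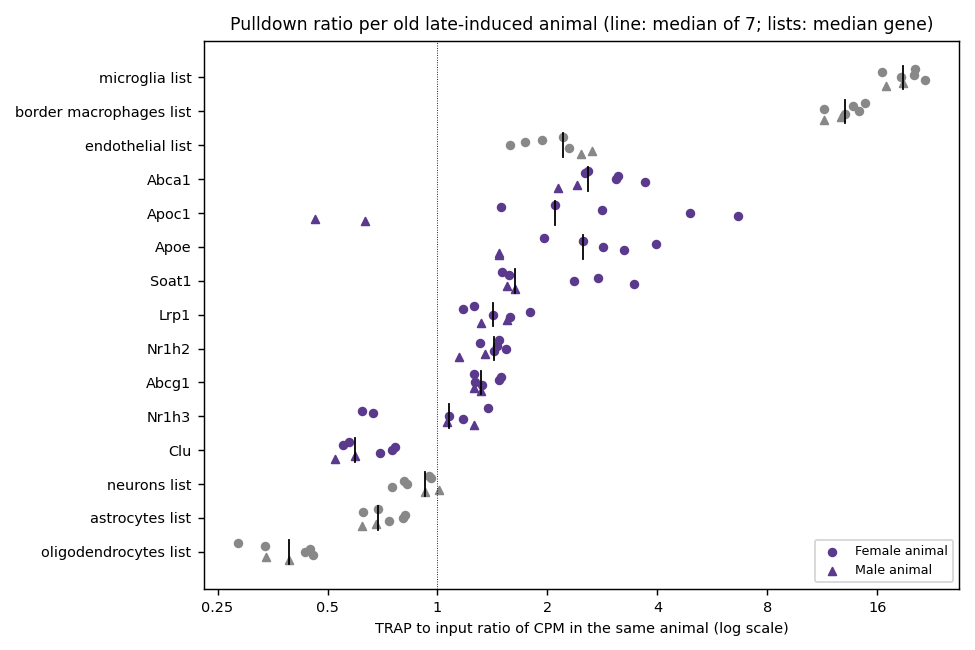
TRAP to input ratio of CPM in each of the 7 22-month late-induced animals (log axis; circles females, triangles males; line, median), for the 9 genes in purple and for cell type marker lists in grey, each list shown as its median gene. The microglia list sits between 16.5 and 21.6, the 9 genes have medians between 0.596 and 2.58, and Clu lies with the astrocyte list below 1.

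Apoe (identifier 11816, chr7:19696244-19699166, minus strand, 5 exon blocks, 2138 bp) encodes the main lipid-carrying apolipoprotein of the brain. It ranged from 2127 through a median of 2512 to 2882 CPM in the late-induced inputs and from 3591 through 6004 to 11399 CPM in TRAP. Every TRAP library was above every input, and the ratio of pulldown to input within an animal averaged 2.49 ± 0.93 (SD, n = 7), from 1.47 to 3.96. The log2 difference was 1.27 ± 0.19 (SE), and edgeR gave an adjusted p of 2.53e-05.

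The spread of Apoe in TRAP was wide, with a coefficient of variation of 45.2% against 9.5% in input. Both males had the smallest ratios, each 1.47, and female replicate 5 had the largest, with 11399 CPM. A test of whether the pulldown difference depended on sex gave -1.02 ± 0.34 (SE, log2, males minus females) with an edgeR adjusted p of 0.74. Across the table, 0 of 14596 genes passed for this interaction, against 962 with an unadjusted p under 0.05. The fit held 2 males and did not pair TRAP with input by animal. In females alone the Apoe difference was 1.56 on the log2 scale.

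Clu (identifier 12759, chr14:65968483-65981545, plus strand, 14 exon blocks, 3437 bp) encodes clusterin, an apolipoprotein and chaperone of astrocytes. It went from 988 through a median of 1075 to 1137 CPM in input down to 565, 641 and 873 CPM (lowest, median, highest) in TRAP. All 7 TRAP libraries were below all inputs, and the mean ratio per animal was 0.637 ± 0.0999 (SD, n = 7). The log2 difference was -0.66 ± 0.08 (SE), edgeR adjusted p 3.99e-06, close in size to the median of -0.53 of the astrocyte markers, of which 15 of 16 were lower. The log2 differences of those markers were spread from -1.15 to -0.14. Among them the ratios averaged 0.660 ± 0.11 for the water channel Aqp4 and 0.746 ± 0.112 for the folate enzyme Aldh1l1, both (SD, n = 7).

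Apoc1 (identifier 11812, chr7:19689481-19692658, minus strand, 3 exon blocks, 744 bp), a small apolipoprotein next to Apoe, was near the limit of detection, with 4 to 37 estimated counts per library over all 36. Its level lay between 0.337 and 1.13 CPM in the late-induced inputs and between 0.476 and 2.40 CPM in TRAP, with medians of 0.722 and 1.57. The groups overlapped, since both male TRAP libraries fell below their own inputs with ratios of 0.635 and 0.461 and the 5 females were above theirs. The log2 difference was 0.93 ± 0.36 (SE), edgeR adjusted p 0.0327. The call was lost without late-induced input replicate 3, 4, 5 or 7 or TRAP replicate 3, 4 or 6, where the adjusted p ran from 0.0506 to 0.0774, and under upper quartile scaling it was 0.0572.

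Both efflux transporters were higher in TRAP. Abca1 rose from 33.2, 36.03 and 40.9 CPM (lowest, median, highest) in input to 71.99, 103.5 and 139 CPM in TRAP. The groups were separate, the ratio averaged 2.80 ± 0.54 (SD, n = 7) with the 2 males lowest at 2.14 and 2.41, and the log2 difference was 1.46 ± 0.08 (SE), edgeR adjusted p 1.15e-10.

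Abcg1 (identifier 11307, chr17:31057694-31117981, plus strand, 16 exon blocks, 7298 bp), which hands cholesterol to particles that already hold lipid, differed less. Its CPM was 84.1, 90.8 and 99.9 in input and 114, 118 and 132 in TRAP (lowest, median, highest). The groups did not overlap, with a mean ratio of 1.34 ± 0.103 (SD, n = 7). Its log2 difference was 0.41 ± 0.05 (SE), with 1.78e-06 as the adjusted p in edgeR.

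Soat1 (identifier 20652, chr1:156428108-156474328, minus strand, 15 exon blocks, 9791 bp), the enzyme that esterifies cholesterol for storage, ran from 16.4 to 22.5 CPM in input (median 19.02) and from 28.6 to 56.6 CPM in TRAP (median 35.4). The ranges were separate, and 3 females (replicates 3, 4 and 5) had ratios of 3.44, 2.36 and 2.75 while the other 4 animals lay between 1.505 and 1.63. The log2 difference was 1.02 ± 0.13 (SE), edgeR adjusted p 3.92e-06. The same 3 animals had the largest Apoe ratios, at 3.23, 2.83 and 3.96, the largest Clu ratios, at 0.698, 0.752 and 0.767, and the largest ratios of the astrocyte marker Aldh1l1, at 0.786, 0.822 and 0.934, which is a description of 7 animals.

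The liver X receptors differed from each other. Nr1h2 (identifier 22260, chr7:44549633-44553923, minus strand, 7 exon blocks, 3354 bp), the widely expressed liver X receptor beta, ranged from 46.4 to 57.6 CPM in input and from 59.6 to 82.3 CPM in TRAP, with medians of 53.2 and 71.9. All TRAP libraries were above all inputs, and the log2 difference was 0.46 ± 0.06 (SE), edgeR adjusted p 7.48e-06. Nr1h3 (identifier 22259, chr2:91184061-91195116, minus strand, 9 exon blocks, 2515 bp), liver X receptor alpha, was at 3.12, 3.96 and 6.21 CPM in input and 3.67, 4.21 and 4.96 CPM in TRAP (lowest, median, highest). Those ranges overlapped, the ratio was above 1 in 5 of 7 animals, and the log2 difference was -0.05 ± 0.16 (SE), edgeR adjusted p 0.804. Nr1h3 shares 34 bp (1.35% of its exons) with a transcript on the same strand.

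Lrp1 (identifier 16971, chr10:127538158-127621148, minus strand, 88 exon blocks, 17717 bp), a large receptor that takes up Apoe particles in neurons and glia, ranged from 374 to 490.2 CPM in input (median 448) and from 565 to 741 CPM in TRAP (median 616). The groups did not overlap, with a mean ratio of 1.44 ± 0.215 (SD, n = 7). The log2 difference was 0.51 ± 0.07 (SE), edgeR adjusted p 5.64e-06.

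The scaling sets where a small pulldown difference is read from. Upper quartile scaling moved the median of all genes from -0.02 to -0.16 and scaling by library size alone to -0.13, and the calls split into 3280 higher and 6372 lower, and 3564 higher and 5748 lower, against 4442 and 4198 in the main result. Under both, Abcg1 (0.27 and 0.30), Nr1h2 (0.31 and 0.35) and Lrp1 (0.36 and 0.40) remained higher and Clu (-0.81 and -0.77) lower, all past the threshold in edgeR.

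To place each gene between microglia and other cells, the ratio in each animal was set on a line between the median ratio of the microglia markers (mean 18.97) and that of the astrocyte markers (mean 0.709). The position gives the share of the input's transcripts that would come from microglia if all microglial transcripts were enriched alike and all others were carried over alike. The marker lists show that the others were not carried over alike: mean ratios per animal were 0.384 for oligodendrocytes, 0.709 for astrocytes, 0.890 for neurons and 2.12 for endothelial cells, the last above 1 in 7 of 7 animals and above the mean ratios of Abcg1 (1.34), Nr1h2 (1.39) and Lrp1 (1.44). The mean ratio of Soat1 was 2.12 as well, and that of Nr1h3 was 1.03. The shares are therefore positions between the microglia and astrocyte lists. Those of Abcg1, Nr1h2, Lrp1, Soat1 and Nr1h3 cannot be told apart from endothelial transcripts, and this limit covers Abca1 and Apoe as well. In the 2 males the endothelial ratio was 2.47 and 2.65, above Apoe (1.47 in each) and Abca1 (2.14 and 2.41). In the females Abca1 was above the endothelial ratio, and so was Apoe except in replicate 7 (1.96 against 2.20). Single endothelial markers had log2 differences up to 1.70. On this scale the share was 11.4 ± 1.90% for Abca1 in the late-induced input, 9.64 ± 4.36% for Apoe and 7.56 ± 3.16% for Soat1 (SD, n = 7). Lrp1 came to 4.01 ± 0.77%, Nr1h2 to 3.72 ± 0.46%, Abcg1 to 3.53 ± 1.02% and Nr1h3 to 1.77 ± 1.705%. Clu was -0.40 ± 0.17%, just below the astrocyte end of the line in 7 of 7 animals, and the Apoc1 value of 10.5 ± 11.3% was no larger than its spread. With border macrophages as the enriched reference, Abca1 came to 17.05% and Apoe to 14.7%. In bulk tissue, fewer cells of a type and less RNA per cell cannot be told apart.

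Other genes of the pathway were described in lists. Of 16 other efflux genes and liver X receptor targets, 8 were higher and 6 lower in TRAP, with a median log2 difference of 0.33. The largest were Ch25h (2.43, cholesterol 25-hydroxylase, which makes an oxysterol), Mylip (2.40, the ligase that degrades lipoprotein receptors) and Npc2 (2.28, which moves cholesterol out of lysosomes). The mean of Npc2 went from 101.6 ± 12.2 CPM before the pulldown to 505 ± 142 CPM after it (SD over 7 animals).

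Of 18 other uptake receptors, 9 were higher and 4 lower. The scavenger receptors Msr1 (3.79) and Cd36 (2.42) and the Wnt co-receptor Lrp5 (2.16) led on the log2 scale, with Msr1 at only 0.467 ± 0.508 CPM in input (SD, n = 7). Of 9 other apolipoproteins, Apoc2 and Apod passed the filter on low counts here, and Apod was lower (-1.44). Apoc2, an activator of lipoprotein lipase, had a log2 difference of 3.74 from 0.223 ± 0.212 to 3.12 ± 2.37 CPM (SD, n = 7 each), and 79.5% of its exon bases overlap a same-strand gene, so its reads are uncertain. Ch25h overlaps a gene on the opposite strand over 11.5% of its exon bases.

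Receptor partners and genes of lipid storage were mixed. Of 10 retinoid X receptors, PPARs and cofactors, 6 were higher and 2 lower, and of 12 genes of esterification and lipid droplets, 4 were higher and 4 lower. The cholesterol synthesis list moved the other way, with 17 of 24 lower and 2 higher and a median log2 difference of -0.26, between the neuron markers (-0.17) and the astrocyte markers (-0.53).

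**Figure D2:**
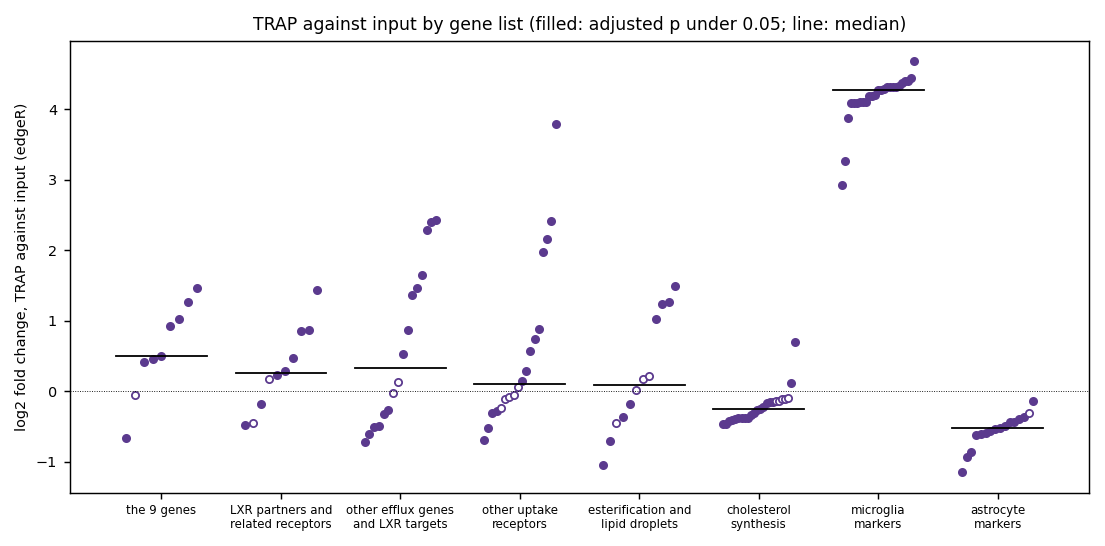
Log2 fold change of TRAP against input for each gene of the lists (filled points, edgeR adjusted p under 0.05; line, median of the list). The 9 genes have a median of 0.51, cholesterol synthesis genes one of -0.26, and microglia markers one of 4.27.

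In whole tissue the 9 genes covered a wide range of levels. Per kilobase of exon, the young inputs averaged 898 ± 41.3 CPM per kb for Apoe, 252 ± 14.3 for Clu and 27.4 ± 1.53 for Lrp1 (SD, n = 10). Lower levels per kb were those of Nr1h2 at 14.8 ± 0.599, Abcg1 at 11.4 ± 0.468, Abca1 at 3.74 ± 0.271, Soat1 at 1.705 ± 0.134, Nr1h3 at 1.62 ± 0.376 and Apoc1 at 0.841 ± 0.266. By mean ± SD, Soat1 and Nr1h3 overlapped, and the other neighbours in this order did not.

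**Figure D3:**
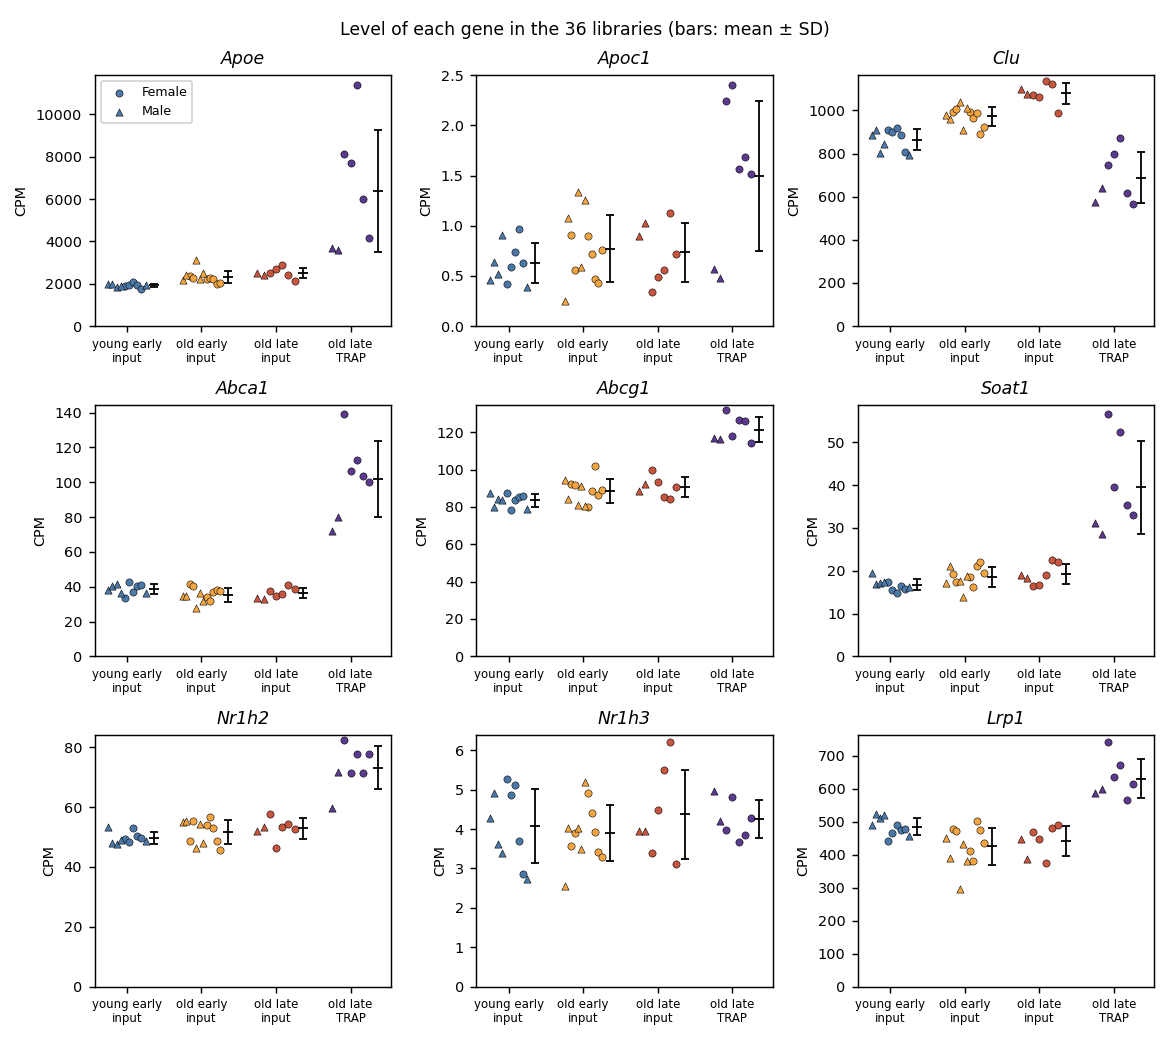
CPM of each gene in the 36 libraries by group (circles females, triangles males; bars, mean ± SD beside each group; all axes start at 0). Apoe and Clu are higher in both old input groups than in the young, and in TRAP Clu drops below all late-induced inputs while Apoe spreads from 3591 to 11399.

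Apoe and Clu were called higher in old hippocampus in both age contrasts, and Lrp1, Abcg1 and Soat1 were called in 1 contrast each, Lrp1 as lower. With early induction, 3 of the 9 genes were called at 22 against 6 months, 2 higher (Apoe, Clu) and 1 lower (Lrp1), by edgeR's quasi-likelihood test. Over 14948 genes tested, 25.6% were called, 13% higher and 12.6% lower. With late induction against the same young animals, 4 of the 9 were called higher (Apoe, Clu, Abcg1, Soat1) and 0 lower, where 34.5% of genes were called, 17% higher and 17.5% lower. The contrasts share the young libraries and are not independent, and the late one differs in induction age as well as age. The median over the 9 genes was 0.09 and 0.13 against 0.01 in both over all genes.

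Apoe ran from 1754 through a median of 1924 to 2082 CPM in the young inputs, from 1974 through 2246 to 3118 CPM in the 22-month early-induced inputs and from 2127 through 2512 to 2882 CPM in the 22-month late-induced inputs. Of the 22-month early-induced inputs, 10 of 12 were above every young input, and of the late-induced inputs 7 of 7 were. The log2 differences were 0.28 ± 0.05 (SE, edgeR adjusted p 0.000267) with early and 0.42 ± 0.06 (7.63e-06) with late induction. Old early-induced replicate 5, a male, had the highest Apoe level of all inputs, and without it the early difference was 0.23 with an edgeR adjusted p of 0.000211.

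Clu rose from 792 to 918 CPM in the young (median 885) to between 892 and 1037 CPM in the 22-month early-induced (median 985) and between 988 and 1137 CPM in the 22-month late-induced inputs (median 1075). Again 10 of 12 and 7 of 7 old inputs exceeded every young input. The log2 differences were 0.18 ± 0.03 (SE, edgeR adjusted p 0.000194) and 0.33 ± 0.04 (1.56e-07). Choroid plexus markers, whose epithelium also makes Clu, had a summed level of 57.01 to 3192 CPM in the young, 53.2 to 4191 CPM in the 22-month early-induced and 54.1 to 3537 CPM in the 22-month late-induced inputs, with a wide spread inside each group; 0 of 8 of them were called in either contrast.

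Lrp1 was lower in the 22-month early-induced inputs, with 442 to 525 CPM in the young (median 484) and 297 to 503 CPM in the old (median 435). Of the 12 old libraries, 7 were below every young input, with replicate 5 lowest. The log2 difference was -0.19 ± 0.06 (SE, edgeR adjusted p 0.0192), and -0.16 with an adjusted p of 0.0242 without replicate 5. In the late-induced inputs (374 to 490.2 CPM) it was -0.14 ± 0.07 with an edgeR adjusted p of 0.124.

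Abca1 missed the threshold in both contrasts. It was at 33.5 to 42.7 CPM in the young (median 39.2), 27.6 to 41.3 CPM in the 22-month early-induced (median 35.4) and 33.2 to 40.9 CPM in the 22-month late-induced inputs (median 36.03), and all 3 ranges overlap. The log2 differences were -0.13 ± 0.05 (SE, edgeR adjusted p 0.0524) and -0.10 ± 0.06 (0.178). Leaving out 1 library at a time gave the early contrast an adjusted p from 0.0144 to 0.103. Abca1 was called lower in 13 of these 29 fits, and in 1 of 9 other settings (adjusted p 0.0433).

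Abcg1 and Soat1 differed by small amounts with late induction. Abcg1 ran from 78.1 to 87.4 CPM in the young and from 84.1 to 99.9 CPM in the 22-month late-induced inputs, of which 5 of 7 exceeded every young input, with a log2 difference of 0.13 ± 0.04 (SE, edgeR adjusted p 0.0207). Soat1 ran from 14.8 to 19.6 CPM in the young and from 16.4 to 22.5 CPM in the late-induced inputs, of which 2 of 7 exceeded every young input, with a log2 difference of 0.21 ± 0.08 (SE, edgeR adjusted p 0.0426). Abcg1 lost its call in females only (0.149) and without late-induced replicate 1, 2, 3 or 4, with adjusted p values from 0.0532 to 0.0936. Soat1 lost its call without any 1 of 14 libraries (late-induced 1, 2, 5, 6 and 7, young 6 to 10, 22-month early-induced 3, 4, 8 and 12), with adjusted p values up to 0.119, and with no filter on low counts (0.0604).

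Apoc1, Nr1h2 and Nr1h3 were not called in either age contrast. Their edgeR adjusted p values were 0.395, 0.23 and 0.74 with early and 0.493, 0.0973 and 0.717 with late induction. The Nr1h2 level averaged 49.7 ± 2.01 CPM in the young and 52.8 ± 3.37 CPM in the 22-month late-induced inputs (SD, n = 10 and 7).

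**Figure D4:**
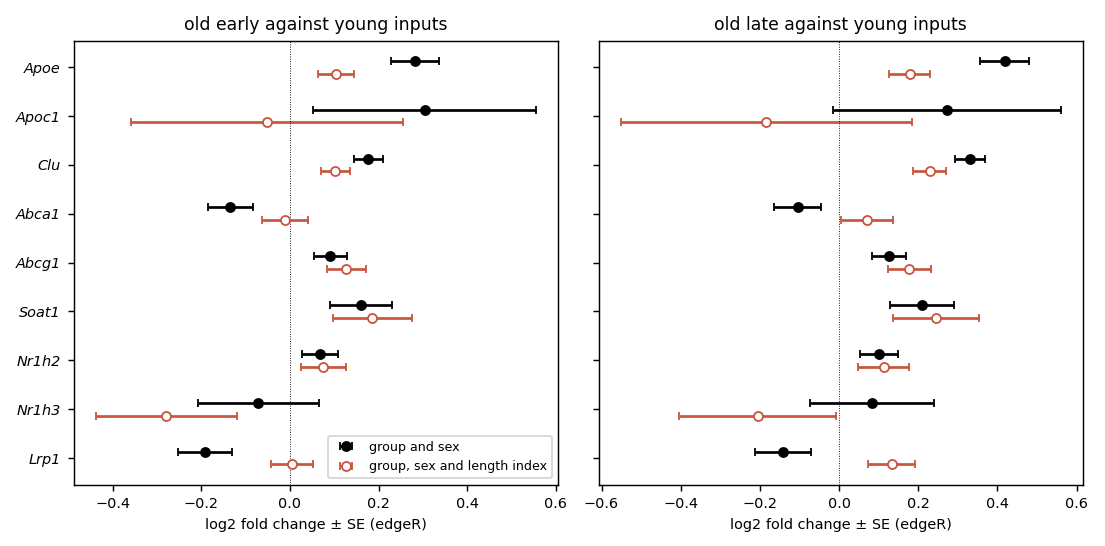
Log2 fold change ± SE of each gene in 22-month early-induced (left) and 22-month late-induced (right) inputs against the young inputs, from edgeR fits with group and sex (black) and with a per-library length index added (open orange points). Apoe falls from 0.28 to 0.10 and from 0.42 to 0.18 when the index is added, and Lrp1 moves from -0.19 to 0.00 on the left.

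A measure of transcript length moved with age in the inputs. The length index of a library, added after seeing the data, is the median log2 CPM of 2443 genes with more than 8 kb of exon minus that of 1330 genes under 2 kb, leaving out the 9 genes. It averaged 1.37 ± 0.06 in the young, 1.17 ± 0.18 in the 22-month early-induced and 1.11 ± 0.11 in the 22-month late-induced inputs (SD, n = 10, 12 and 7), and 22-month early-induced replicate 5 was lowest at 0.72. Of the genes over 8 kb, 30.4% were called lower in 22-month early-induced and 40.9% in 22-month late-induced inputs, against 2.27% and 2.81% of the genes under 2 kb. The index ran from 1.27 to 1.44 in the young, 0.72 to 1.34 in the 22-month early-induced and 0.96 to 1.29 in the 22-month late-induced inputs. Because it comes from the same counts and follows age, the fits below cannot separate transcript length from age. They give the values with the index held fixed. Whether RNA quality or biology moved the index was not tested.

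Lrp1, Abca1 and Soat1 have over 8 kb of exon, and Apoe has 2138 bp. With the index as a covariate, the early Apoe difference was 0.10 ± 0.04 (SE, edgeR adjusted p 0.0981) and the Clu difference 0.10 ± 0.03 (0.0428), while Lrp1 came to 0.00 ± 0.05 (0.975). In the late contrast Apoe was 0.18 ± 0.05 (0.0211), Clu 0.23 ± 0.04 (0.000588), Abcg1 0.18 ± 0.05 (0.0324) and Soat1 0.25 ± 0.11 (0.152). The pulldown differences of Apoe (0.83) and Clu (-0.83) stayed past the threshold, and that of Apoc1 (0.80, adjusted p 0.124) did not.

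**Figure D5:**
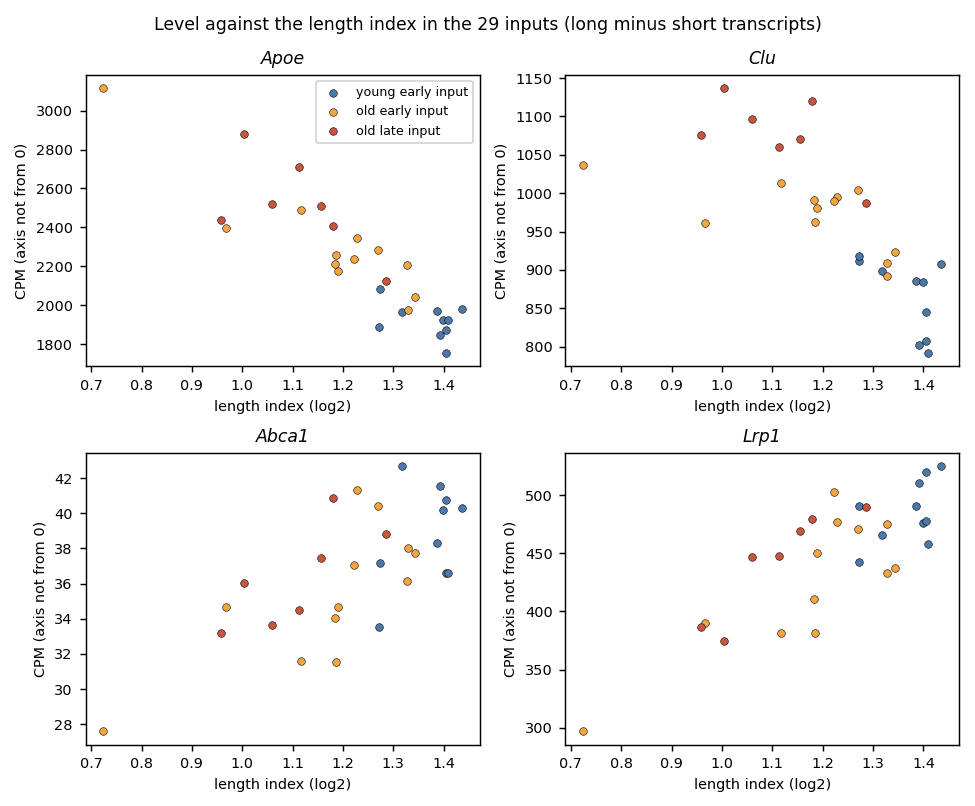
CPM of Apoe, Clu, Abca1 and Lrp1 against the length index of each of the 29 inputs, coloured by group (level axes do not start at 0). Inputs with a lower index had more Apoe and less Lrp1, and the 22-month early-induced library at 0.72 is at the extreme of both.

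The early age contrast was also fitted in each sex alone. In females alone Apoe was 0.20 (edgeR adjusted p 0.0504), Clu 0.13 (0.0549) and Lrp1 -0.06 (0.658), so 0 of the 9 were called. In males alone, a fit chosen after seeing the data, the values were 0.38 (0.0124), 0.22 (0.0178) and -0.35 (0.0239). The test of the difference between the sexes gave 0.19 ± 0.10 for Apoe (SE, males minus females, adjusted p 0.344) and -0.29 ± 0.11 for Lrp1 (0.238), and 0 of 14547 genes passed it, against 2272 with an unadjusted p under 0.05, so a sex difference was not shown.

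Induction age in the old inputs made no called difference among the 9 genes. By edgeR, 0 of the 9 genes and 5 of 14948 (0.0334%) were called between late and early induction, 0.0268% of genes higher and 0.00669% lower. Clu was closest, at 0.15 ± 0.04 (SE, adjusted p 0.0937), with 6 of 7 late-induced inputs above every 22-month early-induced one, and DESeq2 called it (0.16, adjusted p 0.0111), as did edgeR without 22-month early-induced replicate 2 (0.0488) or 5 (0.0226). Apoe was at 0.14 ± 0.06 (adjusted p 0.368). Between males and females, 0 of the 9 and 26 genes (0.174%; 0.0468% higher and 0.127% lower in males) were called, and Apoe differed by 0.07 ± 0.05 (edgeR adjusted p 0.582).

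The neighbouring pathway showed its clearest pattern in cholesterol synthesis. Of its 24 genes, 16 were higher and 0 lower in old inputs in both age contrasts, with medians of 0.28 and 0.28, and Insig1, a feedback sensor of the pathway, led at 0.55 (early) and 0.52 (late); these list counts were not refitted with the length index.

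Of the 9 other apolipoproteins, 2 passed the filter on low counts in the age contrasts, and of these Apod, an apolipoprotein of glia, was called, rising by 0.90 and 1.03, from 139 ± 20.9 to 258 ± 68.9 and 279 ± 70.7 CPM (SD, n = 10, 12 and 7), while its TRAP mean was 104 ± 47.6 CPM (SD, n = 7). Cyp27a1, which makes 27-hydroxycholesterol, rose by 0.54 in both contrasts, and with late induction Npc2 (0.56) rose and Lrp2 (-1.07, at about 1 CPM) fell. Of 17 uptake receptors tested, 1 was higher and 4 lower with early induction, and 2 were higher and 6 lower with late induction. The liver X receptor partners had 0 higher and 2 or 4 lower of 10. Like the synthesis list, these lists and the genes named here were not refitted with the length index. Over the microglia markers, 23 of 25 (early) and 25 of 25 (late) were higher, and over the astrocyte markers 5 and 7 of 16; summed, the microglia list ran from 693 to 812 CPM in the young, 929.9 to 1117 CPM in the 22-month early-induced and 989.9 to 1439 CPM in the late-induced inputs. The astrocyte list ran from 4908 to 5376, from 5186 to 6264 and from 5441 to 6438 CPM in the same order, and no marker of either list was at 0 in all libraries of a group. Oligodendrocyte markers were higher in 11 of 12 (early) and 12 of 12 (late), with medians of 0.38 and 0.56. Blood markers were higher in 2 and 4 of 4. Of 12 neuron markers, 1 and 0 were higher and 1 and 4 lower. The part of these cell types in the Apoe and Clu differences was not tested.

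Within groups, the genes varied with different partners. Over the 29 inputs with group means removed, among 13053 genes ranked, Apoe was most like the ribosomal protein genes Rpl28 (r = 0.89), Rps16 and Rps14, and Lrp1 most like Kif1a (0.95), a long motor protein gene, Dync1h1 and Gtf3c1. Abca1 was nearest to Zfp532 (0.86) and Abcg1 to Abcd2 (0.79). Nr1h3 was nearest to Tmem176b (0.80), Soat1 to Ogn (0.69) and Nr1h2 to Gdpd5 (0.63), while Apoc1 was below the expression limit for this ranking. Apoe and Lrp1 themselves had r = -0.68 and Abca1 and Lrp1 r = 0.77, and libraries share their length index and depth in all of these.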

How the data were processed

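PolyA RNA of mouse hippocampus was measured in 29 inputs and 7 TRAP libraries. Values are estimated counts, deposited by the authors as a single table and marked raw per the file headers, with 77.4% of nonzero values not whole; reads were therefore divided between features, and overlapping genes are uncertain. The submitters' processing notes name DESeq2 and mm10, the build of all coordinates here; aligner, counter and strand handling are not given in the sources used here. Groups and sex came from the labels. Counts were rounded and tested with edgeR 4.0.16 (filterByExpr, minimum count 10, TMM, glmQLFit and glmQLFTest) in R 4.3.3 at a Benjamini-Hochberg adjusted p under 0.05 over all genes tested, with sex as covariate. TRAP against input used 14 libraries without pairing by animal, the other contrasts 1 fit of 29 inputs. TRAP and input came from the same animals; their deviations correlated from 0.308 to 0.470 in the 7 pairs.

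The members and lists were chosen with earlier results of these data known. Genes named beside the members were list genes called at a log2 fold change of at least 0.5 (2 for TRAP), at most 5 per list, and the 3 nearest by correlation. On simulated data, a log2 change of 1 was recovered for 88.8% of changed genes in the TRAP design (14514 genes) and 97.0% in old early against young (14861 genes). A change of 0.5, above every age difference of the 9 genes, was recovered for 53.1% and 75.0%. At each size 98 genes were changed in the TRAP design and 100 in the age design, far fewer than were called in the data. TRAP and input were simulated as unpaired. The rates are therefore not the power of the tests on the data. List genes matched 200 of 201, 2 of them by identifier. Results of 3 genes that these rules name are not reported here.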

Additional observations from a re-analysis of the deposited data

How the results depend on the processing

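Alternatives were other scalings, no filter, DESeq2 1.42.0, other covariates and groups, and each library left out in turn; the length index and males only were chosen after seeing the data. Over the 9 genes in TRAP against input, 70 of 72 values under 8 settings kept their direction and side of the threshold. With the replicate block by animal, TRAP against input gave 9330 calls against 8640, and this pairing changed no call of the 9 genes. DESeq2 gave 2 of the 9 lower in old early against young, 58 calls with 1 of the 9 higher in late against early induction, and 63 calls between the sexes. Females only gave 1198 calls in old early against young (0 higher and 0 lower of the 9), 2787 in old late against young and 182 in late against early. The 2 groups compared alone gave 0 calls in late against early, and the early-induced inputs alone 12 between the sexes. With the length index, calls were 1768 in old early against young (1 of the 9 higher, 0 lower; Lrp1 turned to 0.0038), 1668 in old late against young and 1 in late against early; males only gave 2159 in old early against young. The cause of these changes was not tested.

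Leaving out 1 library gave 0 to 164 calls in late against early (members higher 0 to 1), 17 to 32 between the sexes (17 without late-induced input 2), 1 to 2 of the 9 lower in old early against young and 2 to 4 higher in old late against young. The microglial share moved, with neurons as the other reference, to -1.47% for Clu, 2.70% for Nr1h2, 2.99% for Lrp1 and, within its spread, 0.728% for Nr1h3 (1.77% in the report), and with border macrophages to 14.7% for Apoe, -0.586% for Clu, 17.05% for Abca1, 5.19% for Abcg1, 5.49% for Nr1h2, 6.09% for Lrp1 and 11.6% for Soat1. Depth limits Apoc1 (4 to 37 counts) most.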
